A study of Homo sapiens with 15 samples.

Results

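SPAG1, the gene for sperm-associated antigen 1, was followed across 15 RNA-seq libraries of HepG2 cells, an established human liver tumour line. The cells were untransfected or had been transfected with chemically cloaked or uncloaked mRNA. SPAG1 is 1 of the 41412 rows of the count matrix. It was chosen by its measured values, because in earlier results of these data it was the gene that differed between the weak-cloaked group and the other transfected groups. Its levels are therefore given as a description. Where it appears among called genes, that follows from the choice and is no finding.

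SPAG1 encodes a cytoplasmic co-chaperone with tetratricopeptide repeats (TPR), helical motifs that hold the tails of the chaperones HSP70 and HSP90. In ciliated cells it helps to preassemble the dynein arms, the motors that make cilia and sperm tails beat, before they are carried to the axoneme, and inherited loss of SPAG1 causes primary ciliary dyskinesia. It is known to work beside R2TP-like complexes, in which the ATPases RUVBL1 and RUVBL2 join a PIH-domain protein and a TPR scaffold such as RPAP3 to hand client proteins to HSP90. HepG2 cells are dividing liver tumour cells without motile cilia, and SPAG1 transcripts are nonetheless found in many non-ciliated tissues.

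The study compared 5 groups of 3 biological replicates, all wild type and all harvested at 48 h. Untransfected cells got no mRNA. In the non-cloaked group cells received 1 µg of eGFP mRNA, which encodes a green fluorescent reporter, by means of NanoLNP, a lipid nanoparticle reagent. For the 3 cloaked groups the same amount of mRNA had been cloaked with an agent named CR-3. Weak cloaking used 0.1 M CR-3 for 0.5 h at 25 °C, medium cloaking 0.5 M for 1 h at 30 °C, and strong cloaking 1 M for 2 h at 37 °C, so that concentration, time and temperature moved together over the grades. No group received the reagent without mRNA, so effects of particle and cargo cannot be told apart. The reporter's own transcript was not analysed here.

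Library totals ran from 57128519 to 78548789 counts, and 18380 genes passed the filter on low counts. Hepatocyte markers summed to between 14872 and 20282 CPM, a count scaled to library depth, in every library, with albumin and alpha-fetoprotein both abundant. The transthyretin gene TTR, also a hepatocyte marker, was low at 3.10 to 6.88 CPM. The first principal component of all tested genes held 21.1% of the variance. It placed the untransfected libraries at 68.6 to 70.5 and weak-cloaked replicate 1 at 51.6, while weak-cloaked replicates 2 and 3 lay at -35.5 and -44.1 and the other transfected libraries between -41.7 and 7.81. Weak-cloaked replicate 1 thus stood nearer to the untransfected libraries than to its own group, and the main results that involve the weak-cloaked group are given with and without it.

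The gene lies on chromosome 8 of GRCh38, from 100157906 to 100259278 on the plus strand, and is recorded as ENSG00000104450. GENCODE release 29 gives it 7 transcripts, 4 of them protein coding, over 21 merged exons that hold 5055 of the 101373 bases of its span. The files hold 1 count per gene, so the transcripts could not be told apart.

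SPAG1 was counted 889, 1205 and 2029 times in the untransfected libraries. In the weak-cloaked libraries it was counted 1028, 600 and 597 times. The non-cloaked libraries held 23, 13 and 18 counts, the medium-cloaked libraries 14, 16 and 23, and the strong-cloaked libraries 11, 24 and 15. All 6 untransfected and weak-cloaked libraries were high and the other 9 were low, with no library in between. Summed over 3 libraries, the untransfected group held 4123 counts and the weak-cloaked group 2225, against 54 for no cloaking, 53 for medium and 50 for strong cloaking.

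On the CPM scale, after scaling of the libraries by TMM, SPAG1 stood at 10.8, 13.8 and 23.6 CPM in untransfected cells (16.1 ± 6.68, SD, n = 3). Weak-cloaked libraries held 16.2, 9.67 and 8.68 CPM (11.5 ± 4.11, SD, n = 3). Their ranges overlapped, since weak-cloaked replicate 1 lay above both untransfected replicates 1 and 2. The non-cloaked libraries held 0.316, 0.178 and 0.307 CPM (0.267 ± 0.0774, SD, n = 3). Medium-cloaked libraries held 0.188, 0.219 and 0.338 CPM (0.248 ± 0.0789, SD, n = 3). Strong-cloaked libraries held 0.146, 0.377 and 0.233 CPM (0.252 ± 0.117, SD, n = 3). By group mean the order was untransfected, weak, non-cloaked, strong and medium. Within the high pair the neighbours did not differ beyond their spread, and the ranges of the 3 low groups overlapped one another, so that their order was not resolved.

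**Figure D1:**
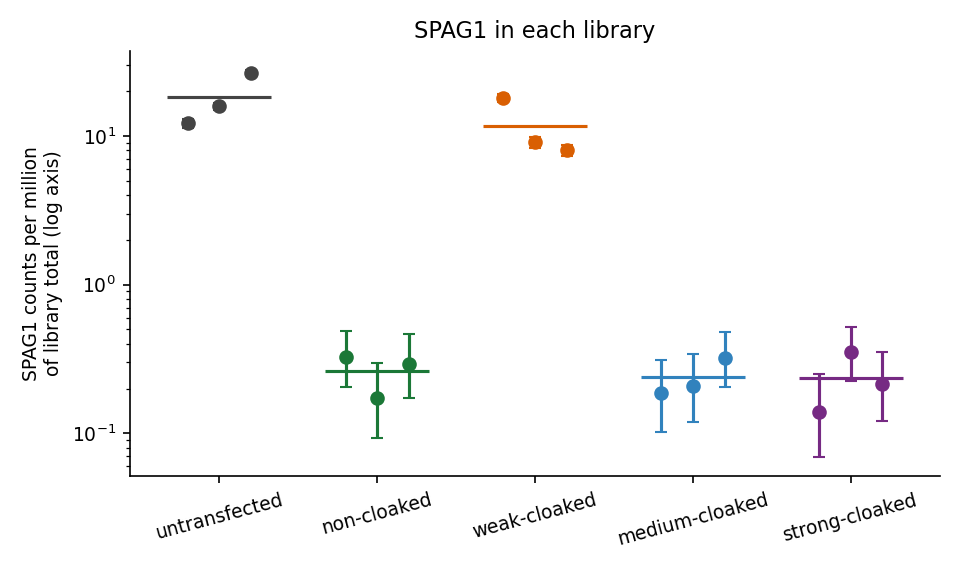
SPAG1 as CPM of the unscaled library total in each of the 15 libraries, on a log axis, with exact 95% Clopper-Pearson intervals as bars and the group mean as a horizontal line. The 3 untransfected and 3 weak-cloaked libraries lie above all 9 non-, medium- and strong-cloaked libraries.

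Counting error was small beside this separation. As CPM of the unscaled library total, the lowest weak-cloaked library, replicate 3, had an exact 95% Clopper-Pearson interval of 7.38 to 8.68. The highest of the low libraries, strong-cloaked replicate 2, had an interval of 0.225 to 0.523, and the lowest of all, strong-cloaked replicate 1, of 0.0699 to 0.251. These intervals cover counting error only. SPAG1 had counts above 0 in all 9 low libraries.

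The lowest weak-cloaked library exceeded the highest of the 9 low libraries 23.0-fold in CPM, and the lowest untransfected library exceeded it 28.7-fold. In the model fitted to all genes, the mean of the non-, medium- and strong-cloaked groups lay below untransfected cells by a log2 difference of -5.97 ± 0.29 (SE), or 62.7-fold. Taken singly, the non-cloaked group differed from untransfected cells by -5.91 ± 0.46, the medium-cloaked group by -6.01 ± 0.47 and the strong-cloaked group by -6.00 ± 0.47. The weak-cloaked group lay above the mean of the 3 low groups by 5.49 ± 0.29, or 45.0-fold. Its difference from untransfected cells was -0.48 ± 0.37, with overlapping replicates. These differences share groups, and so are not independent of each other.

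Level did not follow the order of the grades. From non-cloaked to weak-cloaked mRNA the log2 difference in SPAG1 was 5.43 ± 0.46. From weak to medium cloaking it was -5.53 ± 0.46, and from medium to strong cloaking 0.01 ± 0.44. Medium and strong cloaking differed from no cloaking by -0.10 ± 0.43 and -0.09 ± 0.44, both within 1 standard error of 0. In bulk RNA, fewer SPAG1-expressing cells and less SPAG1 RNA per cell cannot be told apart.

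Without weak-cloaked replicate 1, the library that stood apart, the weak-cloaked group still exceeded the mean of the 3 low groups, by a log2 difference of 5.16. Weak-cloaked replicates 2 and 3, at 9.67 and 8.68 CPM of SPAG1, had first-component scores among or beyond those of the low libraries. SPAG1 was thus high in weak-cloaked libraries at either end of that component, while the 9 low libraries, with scores between -41.7 and 7.81, had it low beside weak-cloaked replicate 2 in the same range. Without weak-cloaked replicate 1 the weak-cloaked group differed from untransfected cells by -0.81, against -0.48 with it.

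**Figure D2:**
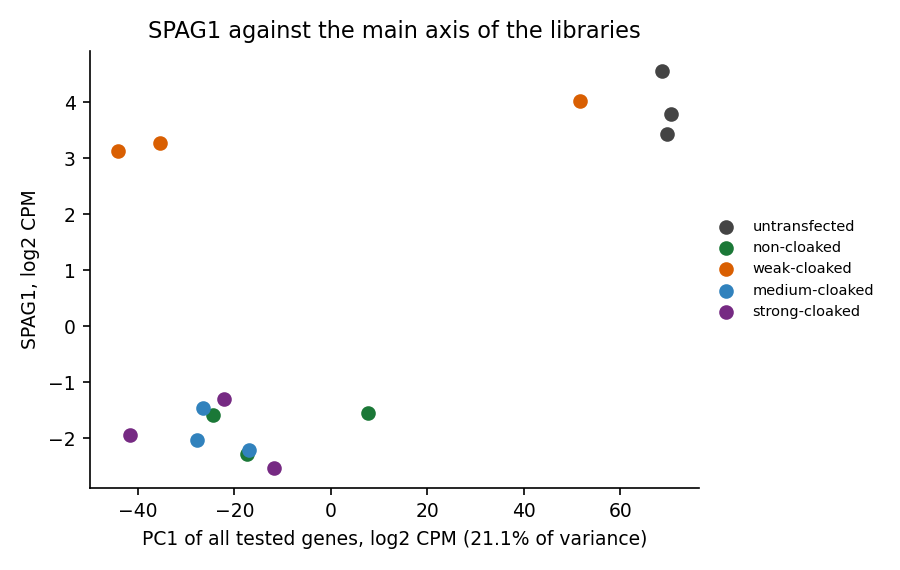
SPAG1 as log2 CPM against the first principal component of all tested genes (21.1% of the variance), 1 point per library, coloured by group. Weak-cloaked replicates 2 and 3 share the low end of the component with the medium- and strong-cloaked libraries but not their SPAG1 level.

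Set against other genes per length, as CPM per kilobase of annotated exon, SPAG1 was a gene of middle rank in the high groups. It reached 3.18 ± 1.32 in untransfected cells and 2.28 ± 0.813 in weak-cloaked cells (SD, n = 3 each), at percentiles 60.1 and 56.1 of the 17222 tested genes with a matched exon length. Weak-cloaked replicates 2 and 3 alone averaged 1.82, at percentile 53.2. In the 3 low groups (non-cloaked, medium and strong) it stood at 0.0528 ± 0.0153, 0.0491 ± 0.0156 and 0.0498 ± 0.0231, at percentiles 7.96, 7.73 and 7.80.

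The comparison of the weak-cloaked group with the mean of the other 3 transfected groups is the one by which SPAG1 was chosen, so its own call there was fixed by the choice. It is given only to show how many other genes were called. In edgeR's quasi-likelihood test 1 gene of 18380 was higher (0.00544%), which was SPAG1, and 0 genes were lower (0%), with 554 genes at an unadjusted p below 0.05. DESeq2 called 14 genes there, 5 higher and 9 lower. PHF2, which encodes a histone demethylase, LINC02506 and KISS1, the kisspeptin gene, were among those other than SPAG1, named here after their values were seen. With edgeR, MZT2A was also called without weak-cloaked replicate 1, C17orf49 and RNASEK-C17orf49 without replicate 2, and BORA without medium-cloaked replicate 3.

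The separation of SPAG1 was next compared with that of every tested gene, as a description. The split of 6 libraries against 9 was taken from SPAG1's own values, so its rank on that split is no finding. All 6 untransfected and weak-cloaked libraries lay above all 9 others in 10 of 18380 genes (0.0544%), and all below in 8 genes (0.0435%). Without weak-cloaked replicate 1 these were 14 and 10 genes. The distance between the lowest of the 6 and the highest of the 9 was 4.43 on the log2 CPM scale for SPAG1. INO80D-AS1 came next at 0.16 and USP45, which encodes a ubiquitin protease, at 0.09. In the opposite direction the largest such distance was 0.21, for KCTD19.

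**Figure D3:**
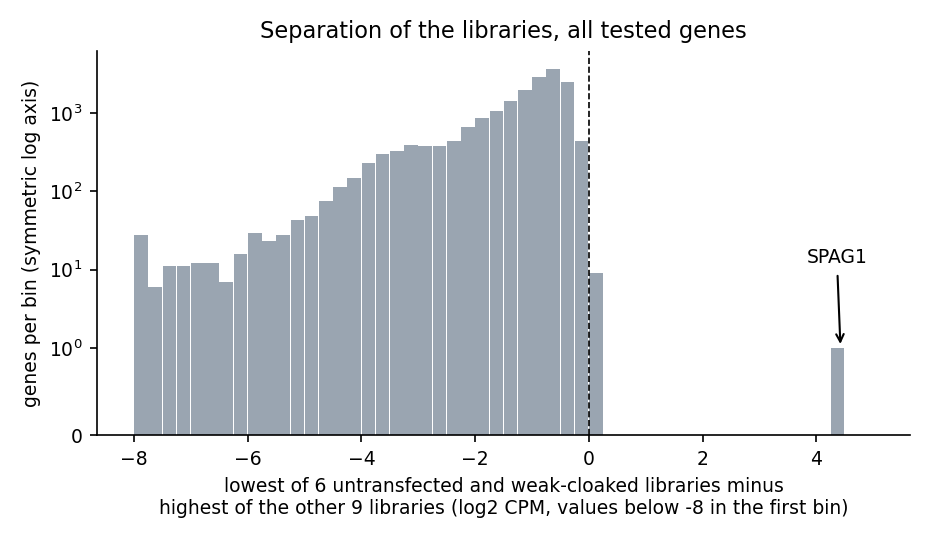
For each of the 18380 tested genes, the lowest of the 6 untransfected and weak-cloaked libraries minus the highest of the other 9, in log2 CPM, as a histogram with a symmetric log count axis. Genes right of the dashed line at 0 separate the libraries completely, and SPAG1 lies at 4.43, apart from the other 9 such genes. The split was taken from SPAG1's own values, so its place is no finding.

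Counting the transfected libraries alone, the 3 weak-cloaked libraries lay above the other 9 in 40 genes and below them in 45. SPAG1, which was chosen on this contrast, had the widest distance, which is no finding. CES4A, a carboxylesterase gene, followed at 0.88. Below the other libraries the widest distances were those of LINC02506 at 1.70, PHF2 at 1.65 and TNRC6B-DT at 1.30, and these 3 were the only genes of the 45 with a distance over 1. With weak-cloaked replicates 2 and 3 alone, which is an easier condition, 231 genes lay above and 239 below.

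Wide steps between libraries were found in other genes of the matrix too. With the libraries sorted by level and at least 3 on each side, 49 tested genes (0.267%) had a step of 3 or more on the log2 scale, which is 8-fold. HBB had the widest step at 7.94, ISY1-RAB43 followed at 6.60 and LPGAT1 at 6.56, and SPAG1 ranked 15th, with 14 genes above it. In the other 48 genes the step divided replicates of at least 1 group from each other. SPAG1 was the gene of the 49 whose step left every group whole. It was chosen for a difference between groups, which favours whole groups, so this is no finding. Of the 49, 48 could be matched to the annotation, SPAG1 included. Among these matched genes 35 (72.9%), SPAG1 being 1 of them, overlap another annotated gene, against 67.9% of all 17222 matched genes.

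The tested genes beside SPAG1 on the chromosome showed no such step. Within 500 kb of its span GENCODE release 29 lists 29 genes, of which 15 were in the matrix and 8 were tested. Upstream lies POLR2K, 3904 bases away, which encodes a small subunit shared by RNA polymerases. It was counted 5269 to 6225 times in untransfected libraries and 5019 to 7518 times in the 9 low-SPAG1 libraries, those of the non-, medium- and strong-cloaked groups. POLR2K rose in the mean of those 3 groups against untransfected cells, by 0.40 ± 0.10 on the log2 scale (SE; adjusted p = 0.012). It lost that call without untransfected replicate 1 or 2 (adjusted p up to 0.069). COX6C, which encodes a subunit of cytochrome c oxidase and lies 263844 bases upstream, rose by 0.38 ± 0.08 (adjusted p = 0.0060). Both lost their calls under total-count scaling, so 2 of 8 neighbours were called higher by TMM and 0 by total counts. Of all tested genes 10.5% were called higher by TMM, and 944 of 18380 by total counts.

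FBXO43, an inhibitor of the anaphase-promoting complex 12106 bases upstream, was counted 166, 26 and 457 times in untransfected cells and between 78 and 174 times in all other libraries. Its untransfected libraries enclosed the rest, and its difference of -0.62 ± 0.51 did not pass the test (adjusted p = 0.41). That value was -1.14 without untransfected replicate 2, with an adjusted p of 0.039, and 0.51 without replicate 3. RNF19A, an E3 ubiquitin ligase gene on the opposite strand, overlaps the end of SPAG1 by 2219 bases of span, 205 of them exonic in both. It was counted 3321, 4510 and 6041 times in untransfected cells and 1894 to 4590 times in the other libraries. Its difference of -0.25 ± 0.19 did not pass the test (adjusted p = 0.37), and between the weak-cloaked group and the 3 low groups it was 0.11 ± 0.19. The libraries are strand-specific, but the strand setting of the counting is not given in the sources used here, so SPAG1 and RNF19A reads over the shared exons are uncertain.

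VPS13B, which encodes a lipid transfer protein of the Golgi and lies 280326 bases upstream, was counted 541, 544 and 650 times in untransfected cells. It was counted 275 to 563 times in the low-SPAG1 libraries, and its difference of -0.26 ± 0.17 did not pass the test (adjusted p = 0.30). Farther downstream, ANKRD46 differed by -0.18 ± 0.25 and PABPC1, the gene for cytoplasmic poly(A)-binding protein, by 0.09 ± 0.09, and neither passed the test (adjusted p = 0.63 and 0.51). PABPC1 turned to -0.15 under total-count scaling. SNX31 was at 0 to 22 counts per library and gives no usable ratio. Between the weak-cloaked group and the 3 low groups none of the 8 neighbours passed edgeR's test, none had an unadjusted p below 0.05, and DESeq2 called 0. Such calls were rare in all 18380 genes too, with 1 by edgeR, 14 by DESeq2 and 554 at an unadjusted p below 0.05. Of the other 564 tested genes on chromosome 8, 55 were higher (9.75%) and 79 lower (14%) in the 3 low-SPAG1 groups than in untransfected cells. Over all tested genes these shares were 10.5% and 12.9%.

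**Figure D4:**
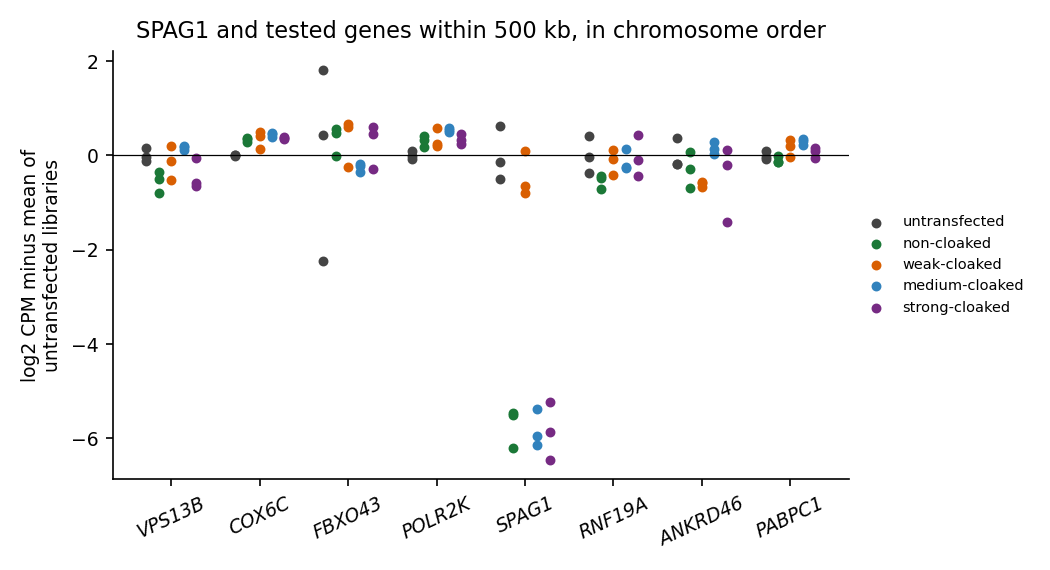
SPAG1 and 7 tested genes within 500 kb in chromosome order, each library as log2 CPM minus the mean of the untransfected libraries, coloured by group (SNX31, at 0 to 22 counts, is left out). The 9 non-, medium- and strong-cloaked libraries lie far below 0 for SPAG1 and nearer to 0 for its neighbours, with the widest spread in ANKRD46, VPS13B and RNF19A.

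The pathway of SPAG1 was examined in 7 lists with 121 distinct genes, 110 of them tested, and markers of HepG2 and of other cells in 2 more lists with 20 genes. As background, the mean of the non-, medium- and strong-cloaked groups against untransfected cells called 1925 of 18380 genes higher (10.5%) and 2379 lower (12.9%). Those 4304 calls became 2664 without untransfected replicate 1 and 2327 without replicate 2. Weak-cloaked against untransfected cells called 387 higher (2.11%) and 218 lower (1.19%). Both comparisons use the same untransfected libraries. Of the 110 pathway genes, 14 were higher and 13 lower in the first comparison, and 1 and 1 in the second. With the markers these counts were 17 and 18, and 2 and 3, of 128 genes. Without weak-cloaked replicate 1 the second comparison called 16 higher and 15 lower of them. That fit called 4007 of all tested genes, 1896 of these higher and the rest lower. The median log2 difference of the 128 in the first comparison was -0.06, the same as that of all tested genes. Between the weak-cloaked group and the 3 low groups edgeR called 0 of the 128, with 1 at an unadjusted p below 0.05 and 0 by DESeq2. For all 18380 genes these counts were 1, 554 and 14. Without weak-cloaked replicate 1 edgeR again called 0 of the 128, with 7 at an unadjusted p below 0.05, and 2 of all genes.

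Direction depended in part on scaling. With libraries scaled by their total counts instead of TMM, the log2 differences of the 3 low-SPAG1 groups against untransfected cells moved down by a median of -0.23. All genes then split into 944 higher and 4442 lower, and the 128 genes of all lists into 7 and 33. The 605 calls of weak-cloaked against untransfected cells depended on single libraries. They became 4007 without weak-cloaked replicate 1, 114 without replicate 2 and 126 without replicate 3. Without untransfected replicate 1, 2 or 3 they lay between 135 and 395. They fell to between 383 and 400 without non-cloaked replicate 2, any of the medium-cloaked replicates or strong-cloaked replicate 2.

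The R2TP list covered the complex that carries clients to HSP90, its adaptors and known clients. In the 3 low-SPAG1 groups 4 of 16 members were higher and 3 lower than in untransfected cells, with a median of 0.08 (1 and 3 by total counts). Among all tested genes 10.5% were higher and 12.9% lower (944 and 4442 of 18380 by total counts). RPAP3, the TPR scaffold of the complex, stood at 10.4, 12.5 and 12.2 CPM in untransfected cells and at 3.97 to 7.42 CPM in the 9 low-SPAG1 libraries. These ranges did not overlap, and RPAP3 fell by 1.10 ± 0.24 (adjusted p = 0.0073). In the weak-cloaked libraries RPAP3 stood at 11.2, 5.88 and 3.83 CPM, so that only replicate 1 was near the untransfected level. NOP58, a core protein of box C/D snoRNPs and a client of the complex, fell by 1.73 ± 0.37 (adjusted p = 0.0063), from 17.3 to 27.6 CPM in untransfected libraries to 2.74 to 11.9 CPM. POLR2E, an RNA polymerase subunit, rose by 0.48 ± 0.11 (adjusted p = 0.0086).

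TTI1, which helps to mature kinases of the mTOR family, had a difference of -0.45 ± 0.11 (adjusted p = 0.013) but lost its call without untransfected replicate 1 or 2 (adjusted p up to 0.065). The ATPases themselves did not pass the test. RUVBL1 differed by 0.18 ± 0.12 (adjusted p = 0.32), and by -0.06 under total-count scaling. RUVBL2 ranged from 31.6 to 187 CPM over the 15 libraries, with wide spread inside every group, and differed by 0.04 ± 0.58 (adjusted p = 0.97), turning to -0.20 under total-count scaling. PIH1D2, a PIH-domain adaptor, was scarce at 0 to 1.22 CPM and differed by -0.45 ± 0.73 (adjusted p = 0.70). The list's calls numbered 3 without untransfected replicate 1 or 2, and 4 without untransfected replicate 3, non-cloaked replicate 3 or medium-cloaked replicate 3.

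HSP70 and HSP90 are the chaperones that SPAG1 binds through its TPR domains. Of 11 chaperone genes 3 were higher and 0 lower in the 3 low-SPAG1 groups (2 and 3 by total counts). An unadjusted p below 0.05 was reached by 4 of them, and DESeq2 called 4 higher. Among all 18380 tested genes 10.5% were higher and 12.9% lower (944 and 4442 genes by total counts). Of those, 6762 had an unadjusted p below 0.05, and DESeq2 called 2550 higher and 2748 lower. The constitutive HSP70 gene HSPA8 differed by 0.09 ± 0.15 (adjusted p = 0.70) and the HSP90 gene HSP90AA1 by 0.04 ± 0.17 (adjusted p = 0.88), turning to -0.15 and -0.19 by total counts. The called members were the inducible HSP70 gene HSPA1B at 1.84 ± 0.59 (adjusted p = 0.039), the HSP40 gene DNAJB1 at 1.67 ± 0.48 (adjusted p = 0.026) and HSP90AB1 at 0.31 ± 0.10 (adjusted p = 0.035). No call of the list held without untransfected replicate 1, 2 or 3. A single call was left without non-cloaked replicate 2, medium-cloaked replicate 2 or 3, or strong-cloaked replicate 3. HSPA1B and its near-identical neighbour HSPA1A can share reads, so its value is uncertain.

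A further list held 16 TPR co-chaperones, which like SPAG1 bind chaperone tails or are built on the same repeat, and the HSP90 co-chaperones AHSA1, PTGES3 and CDC37, which have no TPR domain. Of these 19 genes 2 were higher and 3 lower in the 3 low-SPAG1 groups (1 and 6 by total counts), with a median of 0.04. All 5 calls were among the 16 TPR genes. The shares of all tested genes were 10.5% higher and 12.9% lower (944 and 4442 of 18380 by total counts). TOMM34, a relative of SPAG1 that receives mitochondrial precursors, stood at 106 to 112 CPM in untransfected libraries and 138 to 165 CPM in the 9 low-SPAG1 libraries, without overlap. It rose by 0.48 ± 0.10 (adjusted p = 0.0048). STIP1, the adaptor that joins HSP70 to HSP90, differed by 0.14 ± 0.11 (adjusted p = 0.41), and by -0.10 by total counts. PPID, an HSP90-bound prolyl isomerase, fell by 0.39 ± 0.09 (adjusted p = 0.0096). The list had 3 calls without untransfected replicate 1. None of the 19 passed the test between weak-cloaked and untransfected cells, where 5 had an unadjusted p below 0.05 and DESeq2 called 2. Of all 18380 genes 4151 had such a p in that comparison, and DESeq2 called 2012.

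Dynein axonemal assembly factors act with SPAG1 in the same preassembly pathway. Of 22 listed genes 17 were tested, and 0 were higher and 4 lower in the 3 low-SPAG1 groups, with a median of -0.45. By total counts these were 0 and 5, by DESeq2 0 and 4, and 5 had an unadjusted p below 0.05. Among all 18380 tested genes 10.5% were higher and 12.9% lower, with a median of -0.06. By total counts 944 were higher and 4442 lower, by DESeq2 2550 and 2748, and 6762 had an unadjusted p below 0.05. DNAAF10, a WD-repeat protein that binds the R2TP complex, stood at 12.9, 12.9 and 12.5 CPM in untransfected cells. In the 9 low-SPAG1 libraries it stood at 4.84 to 7.84 CPM, and it fell by 0.94 ± 0.15 (adjusted p = 0.0020). DNAAF10 was also lower in the weak-cloaked libraries, at 8.79, 7.30 and 5.88 CPM, by a log2 difference of -0.80 ± 0.20 (adjusted p = 0.045; -0.96 ± 0.21 and 0.0065 without replicate 1). Its weak-cloaked level was therefore in the range of the low groups or just above it, where SPAG1's was near that of untransfected cells. DNAAF9 fell by 0.51 ± 0.11 (adjusted p = 0.0077).

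DNAAF2, a PIH-domain assembly factor, stood at 11.5, 12.2 and 15.7 CPM in untransfected cells and 3.78 to 7.45 CPM in the low-SPAG1 libraries, a difference of -1.16 ± 0.28 (adjusted p = 0.011). Its adjusted p was 0.053 without untransfected replicate 3. TTC12, another TPR protein of this pathway, differed by -0.64 ± 0.19 (adjusted p = 0.030). TTC12 lost its call without untransfected replicate 1 or 2, medium-cloaked replicate 2 or 3 or strong-cloaked replicate 3 (adjusted p up to 0.18).

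The products of that pathway, axonemal dynein arms and their docking proteins, were mostly scarce in HepG2 cells. Their 24 genes summed to between 25.4 and 43.2 CPM in each library, and 21 were tested. In the 3 low-SPAG1 groups 2 were higher and 1 lower (1 and 2 by total counts). Among all tested genes 10.5% were higher and 12.9% lower (944 and 4442 of 18380 by total counts). ODAD3, a docking-complex protein, differed by 0.63 ± 0.18 (adjusted p = 0.023) and ODAD4 by -0.80 ± 0.25 (adjusted p = 0.031). The intermediate chain gene DNAI1 was at 0 to 18 counts per library and is given no ratio. No call of this list held without untransfected replicate 1 or 2. A single call was left without non-cloaked replicate 2 or medium-cloaked replicate 1 or 3.

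Multiciliated cells, which express SPAG1 strongly, were looked for by their own markers. Among 20 regulators and markers of motile cilia 17 were tested, 0 were higher and 1 was lower in the 3 low-SPAG1 groups. By total counts these were 0 and 5, by DESeq2 0 and 4, and 5 had an unadjusted p below 0.05. Among all 18380 tested genes 10.5% were higher and 12.9% lower. By total counts 944 were higher and 4442 lower, by DESeq2 2550 and 2748, and 6762 had an unadjusted p below 0.05. The summed level of this list was 428 to 518 CPM in untransfected libraries, 452 to 522 in weak-cloaked, and 389 to 562 CPM in the others. These ranges overlapped. TUBB4B, a tubulin gene active in many cell types, made up most of it at 348 to 522 CPM. Without TUBB4B the sum was 44.2 to 68.0 CPM in untransfected and 40.3 to 49.4 CPM in weak-cloaked libraries, against 35.5 to 41.4 CPM in the other 9, below all untransfected libraries. The part of this difference in the SPAG1 level was not tested. The defining marker SNTN was at 0 in all 15 libraries, TEKT1 was at 0 to 18 counts and MCIDAS at 3 to 20. Other markers were counted more often, TPPP3 141 to 286 times per library, PIFO 47 to 143 and CAPS 23 to 124, while RSPH1 was at 0 to 30. The regulators RFX2 and TP73 were at 308 to 1372 and 209 to 442 counts. FOXJ1, the master regulator of motile cilia, ran from 0.858 to 6.88 CPM in untransfected, 2.03 to 3.43 in weak-cloaked and 0.377 to 2.32 CPM in the other libraries. Its difference of -1.49 ± 0.54 did not pass the test (adjusted p = 0.063). It did without untransfected replicate 2 or non-cloaked replicate 1 (adjusted p = 0.026 and 0.046), by DESeq2 (adjusted p = 0.032) and under total-count scaling (adjusted p = 0.030).

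The 1 called gene of this list was SPAG16, which encodes a protein of the axoneme's central pair. It stood at 12.4, 12.6 and 30.6 CPM in untransfected cells and 9.01 to 12.2 CPM in the low-SPAG1 libraries (log2 difference -0.73 ± 0.23, adjusted p = 0.036), and untransfected replicate 3 stood apart. Its adjusted p was 0.55 without that replicate, and the call was also lost without any 1 of 8 of the 9 low-SPAG1 libraries, the exception being non-cloaked replicate 1. The list's calls ranged from 0 to 3 over the libraries left out in turn: they rose to 2 without untransfected replicate 2 and to 3 without non-cloaked replicate 1 or weak-cloaked replicate 1.

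Cytoplasmic dynein, the transport motor that is present in all cells, shares light chains with the axonemal motors. Of its 12 listed genes 3 were higher and 2 lower in the 3 low-SPAG1 groups (1 and 3 by total counts). The shares of all tested genes were 10.5% higher and 12.9% lower (944 and 4442 of 18380 by total counts). DYNLT1, a light chain, stood at 94.7 to 115 CPM in untransfected libraries and 152 to 187 CPM in all 12 transfected libraries. It rose by 0.64 ± 0.09 in the low-SPAG1 groups (adjusted p = 0.0012) and by 0.64 ± 0.11 in weak-cloaked cells (adjusted p = 0.010, and 0.0023 without replicate 1). The light intermediate chain DYNC1LI1 fell by 0.56 ± 0.12 (adjusted p = 0.0061), and PAFAH1B1, the dynein regulator LIS1, by 0.48 ± 0.12 (adjusted p = 0.011). The heavy chain DYNC1H1 differed by 0.28 ± 0.08 (adjusted p = 0.024), a call lost without any of the 3 untransfected replicates (adjusted p up to 0.083) and under total-count scaling. The list had 3 calls without untransfected replicate 1.

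Markers of the line and of other cells completed the lists. Of 10 hepatocyte markers 2 were higher and 3 lower in the 3 low-SPAG1 groups (0 and 5 by total counts). Among all tested genes 10.5% were higher and 12.9% lower (944 and 4442 of 18380 by total counts). HNF4A, a liver transcription factor gene, fell by 0.67 ± 0.14 (adjusted p = 0.0059). APOB and SERPINA1, which encode secreted liver proteins, differed by -0.55 ± 0.14 and 0.47 ± 0.13 (adjusted p = 0.016 and 0.017), and both calls were lost without untransfected replicate 2. APOB's was also lost without untransfected replicate 3, and SERPINA1's without untransfected replicate 1 and under total-count scaling (adjusted p up to 0.071 over the left-out libraries). The list had 3 calls without untransfected replicate 1 or 3 and 2 without replicate 2.

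Leukocyte, fibroblast and endothelial markers summed to 22.2 to 44.9 CPM in untransfected and 63.1 to 110 CPM in transfected libraries. CD68, a lysosomal protein used as a macrophage marker, made up most of the sum in the transfected libraries, at 51.6 to 93.1 CPM. The leukocyte marker PTPRC and the collagen gene COL1A2 were below the filter, while the collagen gene COL1A1 was counted 473 to 806 times per library. The leukocyte markers CD14 and CD3E were at 70 to 156 and 3 to 31 counts. The endothelial markers PECAM1 and CDH5 were at 12 to 74 and 10 to 38 counts. CD68 rose by 1.85 ± 0.40 (adjusted p = 0.0076), PDGFRB, a receptor of fibroblasts, fell by 1.40 ± 0.25 (adjusted p = 0.0027), and VWF, an endothelial gene, differed by -1.22 ± 0.31 (adjusted p = 0.015; 0.078 without untransfected replicate 2). CD68 and PDGFRB also differed in weak-cloaked cells, by 1.93 ± 0.45 and -1.46 ± 0.33 (adjusted p = 0.039 and 0.032, and 0.0098 and 0.011 without weak-cloaked replicate 1). Weak-cloaked libraries lay with the other transfected libraries in this sum, unlike in SPAG1.

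**Figure D5:**
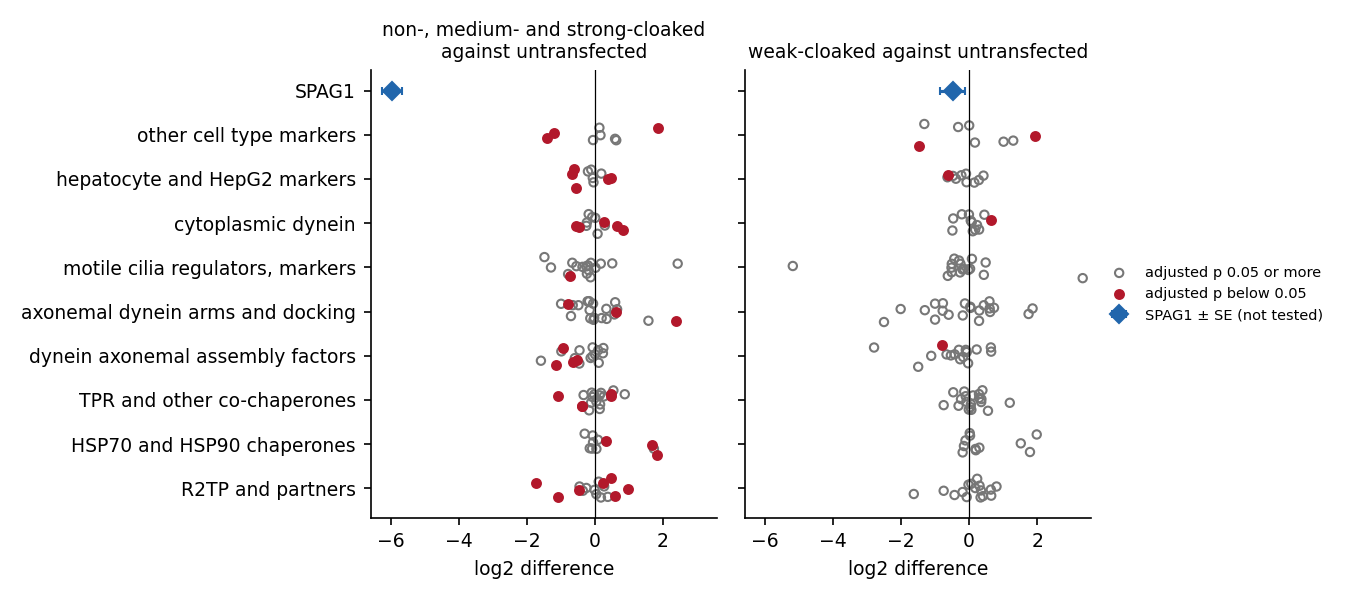
Log2 differences of the tested members of the 9 lists, with each point 1 gene, for the mean of the non-, medium- and strong-cloaked groups against untransfected cells (left) and for the weak-cloaked group against untransfected cells (right). Filled points passed an adjusted p of 0.05, and the diamond is SPAG1 with its standard error, at -5.97 on the left and -0.48 on the right, untested.

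Genes whose levels ran most like SPAG1 were ranked by Pearson's r of log2 CPM over the 15 libraries, among 11873 genes of mean log2 CPM of at least 1. The libraries share groups and scaling, so r is a description. HHEX, a homeobox transcription factor gene of liver development, had the highest r at 0.86. INO80D-AS1 followed at 0.84, N6AMT1, a methyltransferase gene, and OCIAD1, a mitochondrial protein gene, at 0.83 each, and ISCA1, an iron-sulphur cluster assembly gene, and the condensin gene NCAPH at 0.82 each. The lowest were PLA2G6, a phospholipase gene, at -0.89, TAX1BP3 at -0.87 and TMEM191B at -0.85. In all, 10 genes had r over 0.8 and 15 below -0.8.

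HHEX stood at 71.9, 80.9 and 85.8 CPM in untransfected cells and 67.1, 62.0 and 58.2 CPM in weak-cloaked cells. In the other 9 libraries it lay between 47.5 and 58.7 CPM, so the weak-cloaked range just met the low one. Its difference between the low-SPAG1 groups and untransfected cells was -0.60 ± 0.08 on the log2 scale, against -5.97 ± 0.29 for SPAG1. PLA2G6 ran the other way, at 4.50 to 4.98 CPM in untransfected, 5.48 to 5.96 in weak-cloaked and 6.15 to 7.51 CPM in the other libraries. These 9 genes were picked for their likeness to SPAG1 over the same libraries, so no test of them between the groups is given.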

How the data were processed

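Poly(A)-selected, strand-specific libraries were sequenced as 150 bp read pairs after a check of RNA integrity (minimum 7), per the labels' protocols. The authors deposited 1 matrix of raw counts per gene symbol, in which 14176 rows were 0 throughout. The submitters' processing notes name HISAT2, HTSeq, DESeq2 1.46.0, R 4.4.2 and GRCh38. Not given in the sources used here: annotation release, strand setting and the matrix's filter.

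Here edgeR 4.0.16 (R 4.3.3, limma 3.58.1) was applied to the counts: filterByExpr, TMM, 1 mean per group over 15 libraries, quasi-likelihood tests and Benjamini-Hochberg adjustment over 18380 genes, called below 0.05. "Low-SPAG1" means the non-, medium- and strong-cloaked groups. Log2 CPM used a prior count of 2. The common biological coefficient of variation was 0.344. The model was also run on simulated counts, with planted changes in the weak-cloaked group and otherwise equal group means, unlike these data. That outcome is not given here.

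SPAG1 and the lists were chosen with earlier results of these data known. Named were 8 SPAG1 partners, up to 4 called members per list of smallest adjusted p, the nearest tested neighbours, and the 6 most and 3 least like SPAG1. Not every gene so chosen is reported here. Alternatives were DESeq2 1.42.0, RLE and total-count scaling, 2 other filters, a replicate block and left-out libraries. Positions came from GENCODE 29.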

Additional observations from a re-analysis of the deposited data

How the results depend on the processing

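SPAG1's 3 differences stayed within 1 replicate SD (0.50, log2) of their values in 18 of 18 alternatives other than left-out libraries. Over the 15 libraries left out in turn, the weak-cloaked difference from the 3 low groups ran from 5.16 to 5.66, that of the low groups from untransfected cells from -6.19 to -5.59, and that of weak-cloaked from untransfected cells from -0.81 to -0.10. Genes called ran from 2327 to 5337 for the low groups against untransfected cells, from 114 to 4007 for weak-cloaked against untransfected cells, and from 1 to 3 for weak-cloaked against the low groups. DESeq2 called 2012 genes for weak-cloaked against untransfected cells (605 in edgeR), 14 against the low groups (1 in edgeR), and 22 list members against untransfected cells (5 in edgeR), which were 2 without a filter. The cause was not tested. Total-count scaling split the 5386 calls of the low groups against untransfected cells into 944 higher and 4442 lower (1925 and 2379 by TMM).

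Of the 6 genes most like SPAG1, 1 remained by Spearman's rho and 1 over the 12 transfected libraries, an alternative chosen after seeing the data. Same-numbered replicates correlated between -0.0635 and 0.174, with 2 of 30 pairs over 0.1, and 7 of 15 libraries correlated best with their own number. No clear pairing by number was seen, but with 3 replicates per group these values cannot exclude it. With the number as a replicate block SPAG1's differences were 5.52, -5.94 and -0.41, the calls 4369, 816 and 1, and SPAG16 lost its call.

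Among named genes with no call, total-count scaling turned the sign of RUVBL1 (-0.0595), RUVBL2 (-0.20), HSP90AA1 (-0.19), HSPA8 (-0.15), STIP1 (-0.10) and PABPC1 (-0.15), and the replicate block that of RUVBL2 (-0.0821). Left-out libraries gave -0.0315 to 0.0813 for HSP90AA1, -0.32 to 0.88 for RUVBL2, -0.00887 to 0.20 for HSPA8, -1.14 to 0.51 for FBXO43 and -0.29 to 0.0177 for ANKRD46. Of 31 named list members and neighbours with a call, 7 lost it under total-count scaling, 2 without a filter (DNAI1 and HSPA1B), and 0 with DESeq2 or RLE. Depth limits SPAG1 itself in the low groups, where 11 to 24 counts per library leave differences among them unresolved.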
